A study of Mus musculus with 2 samples.

Results

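Markers of the nonparenchymal cells of the liver were followed between the livers of fasted mice and of mice upon feeding. The 37 genes came from a list of markers by cell class, chosen with earlier results of these data known: 8 markers of Kupffer cells, 9 of other leukocytes, 8 of endothelial cells, 7 of stellate cells and 5 of cholangiocytes. Of these, 36 had a probe matched to a RefSeq transcript, against 20652 genes with a matched probe on the array, and Cd68 had none. All 36 were well above background on at least 1 array, as were 16346 of all genes, and 33 were well above background on both arrays.

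The fasting group and the feeding group each consisted of 3 male mice whose livers were pooled and hybridised to a single Agilent whole genome array with the dye Cy3. The methods of the study give male C57BL/6J mice aged about 8 to 12 weeks, and no transgene or drug is named for either group. Fasting lasted 16 h by one label and 14 to 16 h by another, and the feeding group is labelled both as fed freely and as fed once the fast had ended. With 1 array per group there is no replicate, so the groups could not be tested against each other, and every fold change below compares 2 arrays and not 2 conditions. The only error available is that between replicate spots of the same probe, which does not cover differences between mice, pools or hybridisations.

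Hepatocytes fill most of the liver, and the remaining cells line or patrol its sinusoids and bile ducts. Kupffer cells are the resident macrophages of the sinusoids, sinusoidal endothelial cells form a wall with open pores and scavenge material from the blood, stellate cells store vitamin A and can turn into matrix-producing myofibroblasts, and cholangiocytes line the bile ducts. In RNA from whole liver, fewer cells of a type and less RNA per cell cannot be told apart.

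To show sequence that the marker list did not use, the promoters of the markers were read from RefSeq (GRCm38.p6), which had an entry of 250 bases before and 50 bases after the start for 27 of the 37 genes. The letters GGAAGT, a core bound by ETS factors such as the myeloid factor PU.1, or their reverse ACTTCC stood in the promoters of 13 of the 27 markers, 48.1%, and of 26.5% of all 27025 genes with an entry, where 1 of several starts was enough. By class, they were found in 4 of 6 Kupffer cell markers (Clec4f, Vsig4, Timd4 and Cd68) and in 6 of 8 markers of other leukocytes (Lyz2, Ptprc, S100a8, S100a9, Cd79a and Cd3e). They were found in 1 of 5 endothelial markers (Kdr), in 0 of 5 stellate markers and in 2 of 3 cholangiocyte markers (Krt7 and Spp1). The other letters searched on both strands were AGATAA, a core bound by GATA factors, in 14.8% of the markers and 12.7% of all genes, CACGTG, an E-box, in 7.41% and 8.09%, and TGACTCA, bound by AP-1, in 3.7% and 5.95%. None of these strings contains another, and a match describes the letters only and not a bound site.

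The 250 bases before the start of 4 of these markers are shown because Clec4f and Ptprc were lower and S100a8 and S100a9 higher upon feeding, while all of them hold the letters. Capitals mark GGAAGT or its reverse, and each run reads 5′ to 3′ on the strand of the gene. They lie at chr6:83656117-83656366 on the minus strand for Clec4f, at chr1:138175306-138175555 on the minus strand for the first of the starts of Ptprc, at chr3:90668821-90669070 on the plus strand for S100a8 and at chr3:90695722-90695971 on the minus strand for S100a9, all in GRCm38.p6.
Clec4f: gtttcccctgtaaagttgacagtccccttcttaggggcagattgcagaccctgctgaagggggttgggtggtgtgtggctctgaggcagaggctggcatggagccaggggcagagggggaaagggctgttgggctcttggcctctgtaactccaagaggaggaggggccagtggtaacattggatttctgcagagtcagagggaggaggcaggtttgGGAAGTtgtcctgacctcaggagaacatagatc
Ptprc: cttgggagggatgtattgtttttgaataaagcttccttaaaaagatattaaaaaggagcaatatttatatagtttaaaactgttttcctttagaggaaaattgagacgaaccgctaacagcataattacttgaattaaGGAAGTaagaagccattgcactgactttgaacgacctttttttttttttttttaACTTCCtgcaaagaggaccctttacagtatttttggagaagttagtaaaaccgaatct
S100a8: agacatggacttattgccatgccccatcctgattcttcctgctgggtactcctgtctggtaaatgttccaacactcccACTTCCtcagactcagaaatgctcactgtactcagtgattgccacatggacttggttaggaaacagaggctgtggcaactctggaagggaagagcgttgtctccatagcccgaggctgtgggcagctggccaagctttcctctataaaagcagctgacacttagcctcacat
S100a9: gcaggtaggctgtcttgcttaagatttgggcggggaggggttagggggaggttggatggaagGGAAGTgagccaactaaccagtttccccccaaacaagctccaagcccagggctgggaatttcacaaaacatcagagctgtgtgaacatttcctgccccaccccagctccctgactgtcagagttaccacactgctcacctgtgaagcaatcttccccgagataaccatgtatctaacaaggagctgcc
The match in Clec4f began 33 bases before the start, those in Ptprc 112 and 58 bases before it, that in S100a8 172 bases and that in S100a9 188 bases before it.

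The arrays differed in ways that touch dim markers. Each had 44397 spots, with 1377 controls and 0 saturated spots, and the share of spots well above background was 63.1% on the fasting array and 72.3% on the feeding array. The median local background was 30.2 on the fasting array and 22.5 on the feeding array. Values below are processed signals after quantile normalization, in arbitrary units, with the change given as log2 of feeding minus fasting. The SD of a difference between replicate spots was 0.44 on the log2 scale for dim probes, 0.136 for intermediate ones and 0.0942 for bright ones, after all measured genes were divided by signal into 3 groups of like size. Of the measured markers, 8 were dim (Timd4, Ms4a1, Cd79a, Des, Reln, Krt7, Krt19 and Epcam), 10 were intermediate and 18 were bright. Clec4f and Stab2, which define Kupffer and sinusoidal endothelial cells, were bright, and the duct keratins Krt7 and Krt19 and the B cell genes Ms4a1 and Cd79a were dim. The hepatocyte genes Alb (albumin), Apoa1 and Ttr (transport proteins of lipid and thyroid hormone) changed by -0.07, -0.07 and -0.02, while the 3 hepatocyte genes farthest from 0, Fga, Hnf4a and Cps1, changed by -0.64, -0.43 and -0.33.

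At the 2-fold threshold used by the study, 3 of 36 measured markers were higher upon feeding, Sox9, Itgam and Ms4a1, which is 8.33% of them, where 3.29% of all measured genes were higher. Ms4a1 fell short of 2-fold after a different background correction (normexp, below), and Itgam did so with the mean of its probes. One marker, Pecam1, was lower, which is 2.78%, where 4.62% of all measured genes were lower. At 1.5-fold, 5 markers were higher (with S100a8 and S100a9 added), or 13.89%, and 10.5% of all genes, and 5 were lower (Pecam1, Adgre1, Reln, Col1a1 and Col3a1), or 13.89%, and 10.6% of all genes. Most markers were below 0 by less than that: 23 of the 33 markers well above background on both arrays were lower upon feeding, 69.7%, where 50.1% of such genes were. The median change of the measured markers was -0.31, and that of all measured genes was 0.

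**Figure D1:**
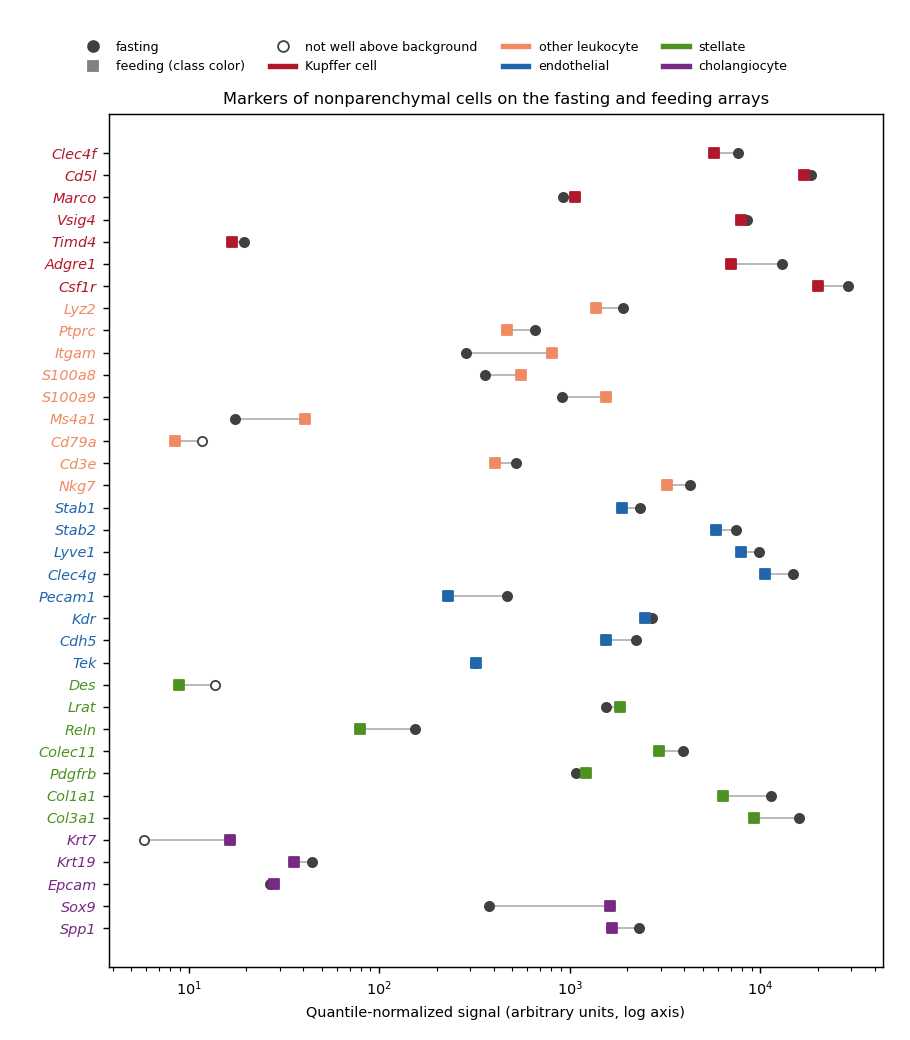
Quantile-normalized signal of each marker on the fasting array (dark circles) and on the feeding array (squares in the color of the cell class), on a log axis in arbitrary units; open symbols are not well above background. Squares lie to the left of the circles for most Kupffer, endothelial and collagen genes, and to the right for Sox9, Itgam, Ms4a1, S100a8 and S100a9.

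The Kupffer cell markers were lower upon feeding for 6 of 7 measured genes, where 50.1% of all genes were. Their median change of -0.22 was the value of the dim gene Timd4. That value was -0.01 after the normexp background correction, which models the local background, where the class median was -0.17. Clec4f, a lectin made only by Kupffer cells within the mouse liver, gave 7657 upon fasting and 5744 upon feeding, a change of -0.41. Adgre1, which encodes the macrophage surface protein F4/80, gave 12987 and 7021, a change of -0.89, and its other probe gave -0.93. Csf1r, the receptor for the growth factor that keeps macrophages alive, gave 28722 and 20042, a change of -0.52, and its other probes gave -0.53 and -0.24. These changes were larger than the spot SD of bright probes, and all probes of Adgre1 and Csf1r pointed the same way. Other cells also use Adgre1 and Csf1r, and without both genes the class median was -0.12, the value of Cd5l.

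The remaining Kupffer cell genes stayed closer to 0. Cd5l, a secreted scavenger-family protein that binds lipids, gave 18376 and 16923, a change of -0.12. Vsig4, a complement receptor, gave 8571 and 7948, a change of -0.11. Both turned positive, at 0.10 each, when the arrays were scaled by their medians. Marco, a scavenger receptor for bacteria, gave 925 and 1065 and was the only Kupffer cell marker above 0, at 0.20. Timd4, a receptor for dying cells, gave 19.6 and 16.8, a change of -0.22 that is smaller than the spot SD of dim probes.

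Of the macrophage genes outside the marker list, 13 of 20 were below 0 and 7 above it, where 50.1% of all genes were below 0, and their median was -0.37. C1qa, a chain of the complement starter C1q, gave 1515 and 474, a change of -1.68, and was the only one past 2-fold. Cd14, the co-receptor for endotoxin, gave 1356 and 766, a change of -0.82. Spic, the factor of iron-recycling macrophages, gave 413 and 698, a change of 0.76 in the other direction. The scavenger receptor Cd163 did not pass the background on any array.

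Leukocyte markers did not move as one. The neutrophil genes S100a8 and S100a9, the B cell gene Ms4a1 and the brightest probe of Itgam were higher upon feeding, and Lyz2, Ptprc and the T and NK cell genes were lower. S100a8 and S100a9 encode the paired calcium-binding proteins that fill neutrophils. S100a8 gave 361 upon fasting and 552 upon feeding, a change of 0.61, and S100a9 gave 907 and 1542, a change of 0.77. Both exceeded the spot SD of 0.136, and across the alternative settings S100a8 stayed between 0.54 and 0.71 and S100a9 between 0.71 and 0.92.

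Itgam, the integrin CD11b of neutrophils and monocytes, gave 286 and 812 with its brightest probe, a change of 1.5 or 2.83-fold. Its other probes gave 25 and 25.7, a change of 0.04, and 32.9 and 21.6, a change of -0.61. The probes of Itgam therefore disagree, and the mean over them was 0.31. Lyz2, the lysozyme of macrophages and granulocytes, gave 1893 and 1377, a change of -0.46, and Ptprc, the pan-leukocyte phosphatase CD45, gave 660 and 470.1, a change of -0.49.

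Lymphoid genes were lower or dim. Cd3e, a chain of the T cell receptor complex, gave 525 and 406, a change of -0.37. Nkg7, a granule protein of NK cells and cytotoxic T cells, gave 4266 and 3239, a change of -0.40, and its other probe gave -0.51. Ms4a1, which encodes the B cell protein CD20, gave 17.6 and 40.6, a change of 1.21 or 2.31-fold, but only 0.20 after the normexp background correction, which models the local background. Cd79a, a chain of the B cell receptor, was well above background on the feeding array only, where its signal was 8.45 against 11.8 upon fasting, so no fold is given. The median of the class was 0 with Cd79a held at its bound, 0.12 over the 8 genes well above background on both arrays and -0.37 with the measured difference, so the class has no single direction.

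Further leukocyte lists had medians on both sides of 0. Of the neutrophil genes well above background on both arrays, 6 of 7 were above 0, with a median of 0.32. Over all such genes on the arrays, 50.1% were below 0. The neutrophil median over the 10 measured, 3 of them (Ngp, Ltf and Mmp9) on the feeding array only, was 0.48. Retnlg, a resistin-like protein of granulocytes, gave 218 and 314, a change of 0.53. Camp, an antimicrobial peptide precursor, gave 76.1 and 118, a change of 0.64, with 0.55 from its other probe. Mpo, myeloperoxidase, gave 33.5 and 45.1, a change of 0.43. Ltf, lactoferrin, was well above background only upon feeding, with a change of at least 1.07 or 2.10-fold. After normexp these 4 genes gave 0.41, 0.29, 0.14 and 0.17. The summed signal of the neutrophil genes well above background on both arrays was 28765 upon fasting and 31425 upon feeding, most of it from Lcn2, which hepatocytes also make, at 19976 and 21993, and Csf3r, at 6595 and 7283.5, while Elane, neutrophil elastase, gave 1832 and 1628. Ly6g, the defining surface protein of mouse neutrophils, had no matched transcript, and Cxcr2 was not well above background. The part of neutrophil content in the values of S100a8 and S100a9 was not tested.

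Of the lymphocyte, NK and dendritic cell genes, 13 of 18 were below 0, where 50.1% of all genes were, and the median was -0.26. Il7r, the interleukin-7 receptor of T cells, gave 80.9 and 38.8, a change of -1.06, and -0.31 after normexp. Itgax, the integrin CD11c of dendritic cells, gave 619 and 341, a change of -0.86, and Gzma, granzyme A of cytotoxic cells, gave 1036 and 573, a change of -0.86.

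**Figure D2:**
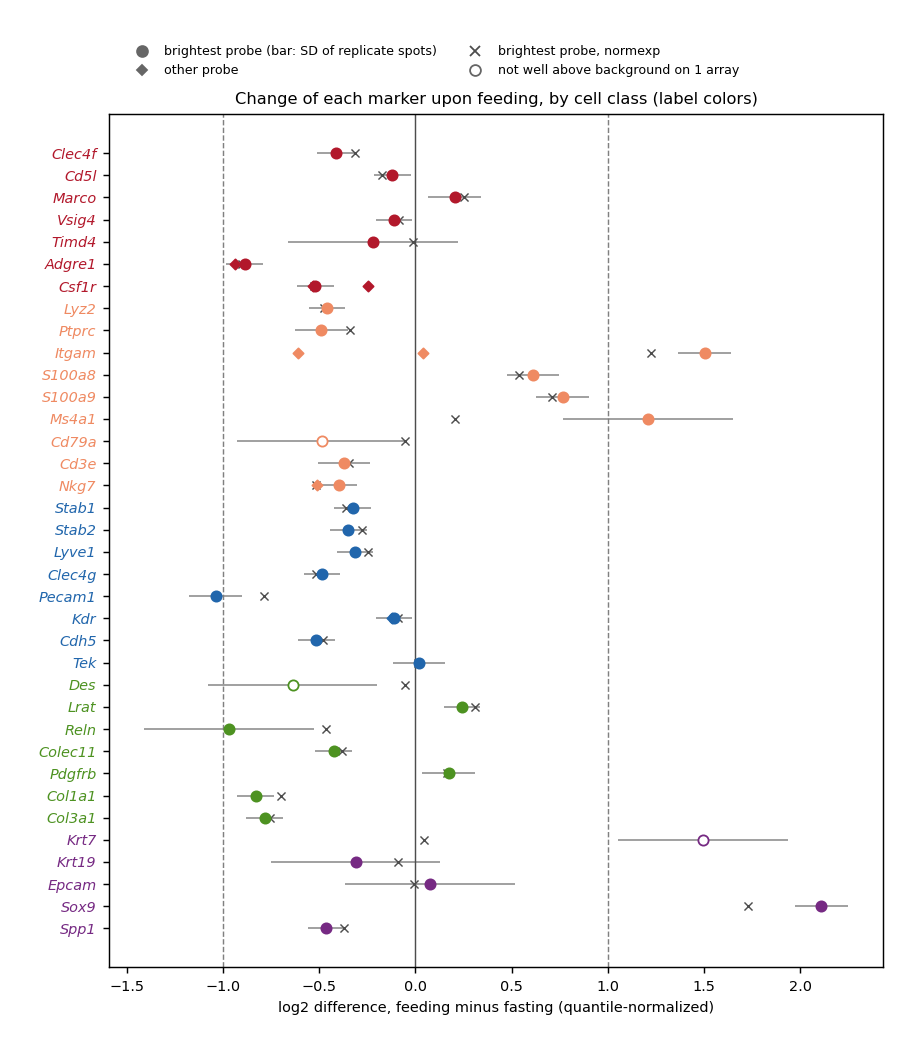
Change of each marker upon feeding, as log2 of feeding minus fasting. Circles are the brightest probe, diamonds other probes and crosses the normexp value. Open circles are genes not well above background on 1 array, and dashed lines are 2-fold. Bars show the spot SD of probes of like signal and not the spread of the gene's own probe. Circles stand at the measured difference without the bound, so Krt7 lies at 1.5, Cd79a at -0.48 and Des at -0.64. Most points lie just left of 0, Sox9 lies at 2.11, and the diamonds of Itgam lie far from its circle at 1.5.

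Endothelial markers were lower for 7 of 8 genes, where 50.1% of all genes were, with a median of -0.34. Stab1, a scavenger receptor, gave 2344 and 1870, a change of -0.33, and Stab2, its relative that takes up hyaluronan, gave 7489 and 5886, a change of -0.35. Lyve1, a hyaluronan receptor, gave 9899 and 7969.5, a change of -0.31, and Clec4g, a lectin of the sinusoids, gave 14839 and 10611, a change of -0.48. These 4 changes lay between -0.48 and -0.31 and each exceeded the spot SD of 0.0942. With median scaling they were -0.14, -0.14, -0.10 and -0.26 in the same order, and each moved by more than that SD.

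Pecam1, the adhesion protein CD31 of all endothelium, gave 470 upon fasting and 229 upon feeding, a change of -1.04 or 2.05-fold lower. It was the only marker past 2-fold downwards, and its change ranged from -1.10 to -0.79 over the alternative settings, so that it fell short of 2-fold after normexp and after median scaling. Cdh5, the cadherin of endothelial junctions, gave 2219 and 1554.5, a change of -0.51. Kdr, the main receptor for VEGF, gave 2694 and 2494, a change of -0.11, with -0.12 from its other probe, and 0.08 after median scaling. Tek, the angiopoietin receptor, gave 318 and 322, a change of 0.02.

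In the further endothelial list 16 of 23 genes were below 0, where 50.1% of all genes were, and 7 above it, with a median of -0.25. Among these, Mrc1, the mannose receptor, was at -0.50, and Fcgr2b, an Fc receptor, at -0.18. Bmp2 was at -0.46, Oit3 at -0.40, Flt4 at -0.37 and Dnase1l3 at -0.25. Gpr182, an atypical chemokine receptor, was above 0, at 0.36. Plvap, which forms the diaphragms of vessel pores, gave 1547 and 729, a change of -1.09, with -0.86 from its other probe. Cldn5, a claudin of endothelial tight junctions, gave 183 and 564, a change of 1.62 in the other direction. Nrp1, a co-receptor for VEGF, gave 154 and 239, a change of 0.64. Wnt2 and Erg did not pass the background on any array.

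Of the 6 stellate cell markers well above background on both arrays, 4 were below 0 and 2 above it, and none reached 2-fold. Over all such genes on the arrays, 50.1% were below 0. Col1a1 gave 11399 upon fasting and 6412 upon feeding, a change of -0.83, and Col3a1 gave 16030 and 9315, a change of -0.78. These are the chains of fibrillar collagens I and III, and neither reached 2-fold under any setting. Lrat, the enzyme that esterifies retinol for storage, gave 1554.5 and 1839, a change of 0.24, and Pdgfrb, the receptor for platelet-derived growth factor, gave 1077.5 and 1215, a change of 0.17. Both stayed above 0 under every scaling.

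Reln, a secreted matrix glycoprotein of quiescent stellate cells, gave 155 and 79.1, a change of -0.97, and ranged from -1.08 to -0.46 over the settings. Colec11, a collectin, gave 3933 and 2930, a change of -0.43. Des, the muscle-type intermediate filament, was well above background on the feeding array only and gave 13.8 and 8.87, so no fold is given. The median of the class was -0.43, and -0.60 over the 6 genes well above background on both arrays.

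The further stellate and fibroblast list had 19 of 24 genes below 0, where 50.1% of all genes were, and a median of -0.24. Acta2, the smooth muscle actin of myofibroblasts and vessel walls, gave 651 and 318, a change of -1.04. Steap4, a metalloreductase, gave 4643 and 2673.5, a change of -0.80, and Timp1, an inhibitor of matrix proteases, gave 187 and 110, a change of -0.77. Rgs5, a regulator of G protein signaling in pericytes, was well above background only upon fasting, at 51.9 against 9.13, a change of -2.51 as a bound, and -0.42 after normexp. Gfap, a filament protein of stellate cells, did not pass the background on any array.

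Cholangiocyte markers showed 1 large change among small ones. Sox9, a transcription factor of the bile duct epithelium that some hepatocytes near the portal tract also express, gave 377 upon fasting and 1625.5 upon feeding, a change of 2.11 or 4.31-fold. It ranked 69 among increases of all measured genes, and 0.422% of genes changed as far in the same direction. The probe of Sox9 stood 10 times on each array. Its spots ranged from 364 to 448.5 upon fasting with a median of 395, and from 1517 to 1674 upon feeding with a median of 1592, before normalization, so the spots did not overlap. The standard error of the difference between spots was 0.0284 on the log2 scale, and the change ranged from 1.73 with normexp to 2.24 over the settings.

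The other cholangiocyte genes well above background on both arrays did not reach 2-fold. Spp1, osteopontin, which macrophages also make, gave 2303 and 1671, a change of -0.46. Krt19 and Krt7 are the keratins that define duct cells, and Epcam is an adhesion protein of epithelia. Krt19 gave 44.5 and 35.9, a change of -0.31, and Epcam gave 26.8 and 28.2, a change of 0.08. Krt7 was well above background only upon feeding, at 16.5 against 5.85, a change of at least 0.19 or 1.14-fold and 1.5 as measured without the bound, which would pass 2-fold. The changes of Krt19 and Epcam and the bound of Krt7 were smaller than the spot SD of dim probes.

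For the further cholangiocyte genes the median was -0.03, and 10 of 16 were below 0, where 50.1% of all genes were. Krt23, an epithelial keratin, gave 909.9 and 320.5, a change of -1.51. Prom1, a membrane protein of progenitor cells, gave 110 and 179.5, a change of 0.70, with 0.30 from its other probe. Tspan8 gave 98.4 and 70.5, a change of -0.48. Sox9 and Krt23 thus moved in opposite directions by more than 2-fold.

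Replicate spots were also available for Kdr and Des. The 9 spots of Kdr ranged from 2575 to 2817 upon fasting and from 2288 to 2624 upon feeding, with an overlap. The 10 spots of Des ranged from 9.11 to 19.4 upon fasting and from 5.90 to 11.7 upon feeding, and 2 and 7 of them were well above background. The local background was higher on the fasting array, and its part in which spots of Des passed was not tested.

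Genes of inflammatory activation were listed because Kupffer and endothelial cells are known to respond to it. Of 12 genes well above background on both arrays, 7 were below 0, where 50.1% of all such genes were. The median over the 13 measured was -0.14. The 5 genes above 0 were Cxcl10 at 0.57, Icam1 at 0.48, Nos2 at 0.48 (0.15 after normexp), Cxcl1 at 0.38 and Il1b at 0.26. Vcam1, the adhesion protein by which vessels hold leukocytes, gave 13518 upon fasting and 3324 upon feeding, a change of -2.02, and its other probe gave 834 and 602, a change of -0.47. Ccl2, the chemokine that draws monocytes, gave 683 and 330, a change of -1.05, and Socs3, a feedback inhibitor of cytokine signaling, gave 1825 and 951, a change of -0.94. Tnf was well above background only upon feeding, and Cxcl2, Sele and Ptgs2 on neither array.

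**Figure D3:**
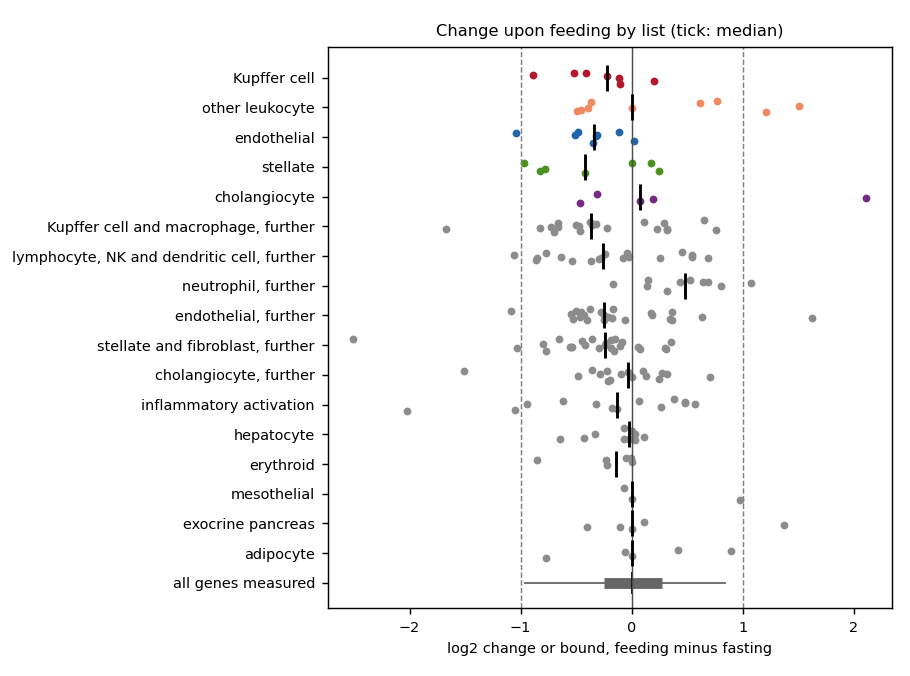
Change upon feeding, as log2 of feeding minus fasting or its bound, for the genes of every list; each point is a gene, Cd79a and Des stand at 0 because their bound gave no fold, ticks are medians, dashed lines are 2-fold, and the bar below shows all measured genes with the middle 50% thick and the 5th to 95th percentile thin. The medians of the Kupffer, endothelial and stellate lists lie left of 0, at -0.43 to -0.22, and that of the neutrophil list lies at 0.48, or 0.32 over the genes well above background on both arrays.

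Lists of other cells and tissues that a liver sample can carry were read on the same arrays. The median of the hepatocyte list was -0.02, with 7 of 12 genes below 0, where 50.1% of all genes were, and a range of -0.64 to 0.11. Of the red cell genes well above background on both arrays, 5 of 5 were below 0, where 50.1% of all such genes were. Ermap was at -0.85, Klf1 at -0.23 and Alas2 at -0.23. The summed signal of the 5 genes was 26045 upon fasting and 24030 upon feeding. Most of that sum was the hemoglobin gene Hba-a1, at 22098 and 21300, which changed by -0.05, and Slc4a1, the anion exchanger of red cells, was at 0.00 and at 0.05 after normexp. Of the mesothelial genes Msln changed by -0.07 and Wt1 by 0.98, or 0.25 after normexp. Of the pancreatic enzymes Ctrb1 changed by -0.40, Amy2a5 by -0.10, with -0.03 from its other probe, and Cel by 0.11. Prss2 was well above background only upon feeding, with a change of at least 1.37, or 0.42 after normexp. Of the fat cell genes Cfd changed by 0.89, Cidec by -0.77 and Retn by 0.42, or by 0.55, -0.73 and 0.11 after normexp. The other probe of Cidec gave -1.37, and that of Retn, well above background only upon feeding, gave at least 0.71. Adipoq and Lep did not pass the background on any array, while Cidec gave 8679 and 5081. The part of fat cell content in the value of Cidec was not tested. The part of red cell content in the values of the Kupffer, endothelial and stellate markers was not tested.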

How the data were processed

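Hepatic RNA of 1 pool of 3 fasted and 1 pool of 3 fed mice was measured on 2 Agilent whole mouse genome arrays. The authors labelled total RNA with Cy3 and extracted spots with Feature Extraction 11.0.1.1 (the version is also in the submitters' processing notes), and what they deposited are spot intensities, corrected for background within each array (processed signal) and with no normalization between arrays. The deposited value table of the series equals the mean local background for 44397 of 44397 spots on both arrays (within a relative tolerance of 1e-06) and was not used as expression.

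From the intensities, log2 processed signals were averaged per probe, leaving out controls and outliers, and then quantile normalized (39402 probes); 27218 probes matched 1 gene through RefSeq transcripts of GRCm38.p6. The array design was made on an older build, so no coordinates are given for probes. The probe with the highest mean signal represented a gene. Other probes that were well above background are given for the markers and for genes picked from further lists by size of change. For the remaining genes only the brightest probe is given. A probe with several spots passed the background where at least 50% of its spots did. A gene counted as measured where 1 or both arrays showed that probe well above background. Where only 1 did, the dim side was set to its own signal or, if higher, to the lowest detected probe signal of that array, and the change is written "at least". No fold is given where that bound was under 1. Genes were counted at the study's 2-fold threshold. With 1 array per group no test was run; the number of arrays limits the precision.

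All markers were named, and from each further list the 3 genes with the largest change among those well above background on both arrays. Also named were all genes past 2-fold where they numbered 5 or fewer, and Alb, Apoa1 and Ttr for hepatocytes. Genes named only as not detected were added after their values were seen. So were Tnf, Fga, Hnf4a, Cps1, Hba-a1, Slc4a1, Ngp, Mmp9, Lcn2, Csf3r and Elane. The same holds for Mrc1, Fcgr2b, Gpr182, Oit3, Dnase1l3, Bmp2, Flt4, Cxcl10, Icam1, Nos2, Cxcl1 and Il1b. The markers and lists were chosen with earlier results of these data known. The alternatives tried were 75th percentile and median scaling, normexp with an offset of 50 on the median signal (limma 3.58.1, R 4.3.3), the mean of probes, other filters, no bound, other thresholds and classes without markers that other cells use. Other steps ran in Python 3.11.15 with numpy 2.4.6 and pandas 2.3.3. Averaging, quantile normalization and the choice of probe were tested on simulated spots that all passed the background. The bounds, the alternatives and the promoter search were not tested in that way.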

Additional observations from a re-analysis of the deposited data

How the results depend on the processing

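Scaling and background correction moved many single markers. Of 102 values of markers with a change other than 0 under 75th percentile scaling, median scaling and normexp, 68 moved by less than the spot SD and 34 by more, and 96 kept their sign. Sign changes occurred for 5 markers near 0: Cd5l, Vsig4 and Kdr with median scaling, Tek with 75th percentile scaling, and Epcam with 75th percentile scaling and normexp. The number of markers past the threshold was 5 higher and 5 lower at 1.5-fold and 1 higher and 0 lower at 3-fold. At 2-fold the number higher was 2 with normexp (Ms4a1 left out) and 2 with the mean of probes (Itgam left out). It was 4 without the filter on dim probes or without the bound (Krt7 added). The number lower at 2-fold was 2 with 75th percentile scaling (Reln added), 0 with median scaling and 0 with normexp. The median of other leukocytes was -0.37 without the filter on dim probes or without the bound, and 0.31 without Lyz2, which other cells use; that of endothelial markers was -0.14 with median scaling. Median scaling moved the Kupffer median to -0.14 and the stellate median to -0.22. Without Adgre1 and Csf1r, which other cells use, the Kupffer median was -0.12. Without Des, Reln and Colec11, which other cells use, the stellate median was -0.30. With all its markers, the stellate median was the value of Colec11, which median scaling moved by more than the spot SD of bright probes. The cholangiocyte median turned to -0.01 with 75th percentile scaling and with normexp and to -0.12 over genes well above background on both arrays. Median scaling moved the median of all genes by 0.09, and relative to each setting's median 23 to 25 of 33 markers were lower under every scaling and with normexp. Over all genes, 1293 passed 2-fold, 41.5% of them higher; with median scaling it was 1366 and 52.5%, with normexp 527 and without a filter 2366. The causes were not tested.

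Dim markers, with a spot SD of 0.44, carry the least precision, and Ms4a1 fell from 1.21 to 0.20 with normexp. Naming by the arrays' gene name column was planned and not run, because the arrays were read with transcript identifiers alone, without a gene name column. No replicate could be left out, with 1 array per group. No paired analysis was possible because the groups share only replicate number 1.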

Other observations

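Cd79b, the partner of Cd79a in the B cell receptor, was chosen from the further lymphocyte list after its values were seen. It gave 140.3 upon fasting and 204 upon feeding, a change of 0.54, and 0.29 after normexp. Among cytotoxic cell genes Gzmb, granzyme B, gave 682 and 437, a change of -0.64, and Prf1, perforin, gave 80.9 and 96.7, a change of 0.26.

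C1qb and C1qc, which encode the chains that join C1qa in C1q, changed by -0.73 and -0.47, against -1.68 for C1qa.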
